A study of Mus musculus with 8 samples.

Results

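The genes of sterol and fatty acid synthesis were examined in cultured mouse dermal fibroblasts transfected with miR-127-3p mimic. The 31 genes were chosen by symbol, for their known roles, with earlier results of these data known. All 31 are among the 17107 features tested, 12044 of which carry a gene symbol. They comprise 17 enzymes of sterol synthesis, 5 regulators of the SREBP factors, 2 proteins of sterol transport, 5 enzymes of fatty acid synthesis and 2 sterol exporters driven by the nuclear receptor LXR. The cells were primary fibroblasts from the skin of newborn C57BL/6 mice. They received miR-127-3p mimic oligonucleotides (n = 4, samples 2, 4, 5 and 7) or with control oligonucleotides (n = 4, samples 1, 3, 6 and 8). A mimic is a made RNA that acts in the cell as the microRNA would. All 8 samples shared the strain, the cell type and transfection with an oligonucleotide, and the labels do not say whether they came from separate cultures or animals, so the p-values measure the spread between these samples, which may be technical. The treatment field of controls 3 and 6 names both oligonucleotides, while their titles and source names place them with the controls. RNA was read in 1 colour on 1 array per sample, and the time from transfection to harvest is not stated in the labels.

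Cells make cholesterol and fatty acids from acetyl-CoA. The sterol enzymes are driven mainly by the transcription factor SREBP2 and the fatty acid enzymes mainly by SREBP1, which are held in the endoplasmic reticulum by INSIG proteins and escorted out by SCAP when sterol is scarce. When sterol is abundant, oxidised sterols activate LXR, which raises the exporters of cholesterol. Fibroblasts express genes of each arm. In such bulk samples, fewer cells of a type and less RNA per cell cannot be told apart.

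The mature strand that the mimic copies is shown because it defines the treatment, with its seed (bases 2 to 8) in capitals. It was taken from RefSeq (GRCm38.p6, plus strand, chr12:109592888-109592909).
miR-127-3p: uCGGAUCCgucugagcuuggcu

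The promoter windows of 3 enzymes are shown. Hmgcs1 and Mvk hold the box that most of the sterol enzymes share, and Elovl6 is a fatty acid enzyme without it. Any link between this box and the fold changes was not tested. Each window runs from 250 bases before to 50 bases after the annotated start, from RefSeq (GRCm38.p6). Capitals mark the NF-Y box CCAAT on either strand and, in Hmgcs1, the sterol response element TCACNCCAC. Hmgcs1, which makes the precursor of mevalonate, lies at chr13:119690101-119690400 (plus strand). Mvk, the kinase of mevalonate, lies at chr5:114444019-114444318 (plus strand). Elovl6, which lengthens palmitate, lies at chr3:129532136-129532435 (plus strand) and holds neither element in this window.
Hmgcs1: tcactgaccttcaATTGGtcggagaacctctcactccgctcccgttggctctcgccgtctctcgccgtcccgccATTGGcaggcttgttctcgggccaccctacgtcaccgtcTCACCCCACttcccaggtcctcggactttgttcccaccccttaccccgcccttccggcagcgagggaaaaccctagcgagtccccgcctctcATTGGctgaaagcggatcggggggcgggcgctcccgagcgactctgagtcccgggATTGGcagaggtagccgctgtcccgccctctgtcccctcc
Mvk: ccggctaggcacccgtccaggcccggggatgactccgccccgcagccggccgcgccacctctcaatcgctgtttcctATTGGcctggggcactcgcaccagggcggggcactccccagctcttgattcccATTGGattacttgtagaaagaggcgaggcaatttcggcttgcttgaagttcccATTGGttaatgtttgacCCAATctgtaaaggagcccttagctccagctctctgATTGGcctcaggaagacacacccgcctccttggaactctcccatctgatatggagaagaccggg
Elovl6: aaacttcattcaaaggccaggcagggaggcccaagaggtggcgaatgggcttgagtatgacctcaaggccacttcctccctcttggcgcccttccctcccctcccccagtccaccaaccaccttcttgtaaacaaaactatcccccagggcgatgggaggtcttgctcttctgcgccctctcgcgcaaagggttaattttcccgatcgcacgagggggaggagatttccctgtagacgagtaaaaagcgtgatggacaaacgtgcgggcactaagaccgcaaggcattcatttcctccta

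Of the 31 genes, 23 had a promoter in the RefSeq table; those without were Abcg1, Fdft1, Fdps, Npc1, Scd1, Scd2, Sqle and Stard4. The NF-Y box was present in 18 of these 23 (78.3%), and in 13 of 14 sterol synthesis enzymes (92.9%), against 41.1% of all 27025 genes in the table. The Sp1 box GGGCGG was present in 19 of 23 (82.6%) and in 13 of 14 sterol enzymes (92.9%), against 38.2% of all genes. The E-box CACGTG, which SREBP1 can also bind, was found in 6 of 23 genes (Abca1, Dhcr7, Hsd17b7, Insig1, Sc5d and Scap; 26.1%), against 8.09% of all genes. The sterol response element in the strict spelling above was found in Hmgcs1 alone (4.35%), against 1.44% of all genes. The letters GGTCA repeated after 4 bases were found in 0 of 23 genes and in 0.0518% of all genes. The DR4 element of LXR spaces whole AGGTCA repeats by 4 bases, so its GGTCA cores lie further apart. This search therefore did not count DR4 elements, and their presence was not tested. Both strands were searched, a gene with several starts was counted if any of its windows matched, and none of the 96 matches in these genes overlapped a match to another motif. A match is a description of the letters and not a measured binding site.

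**Figure D1:**
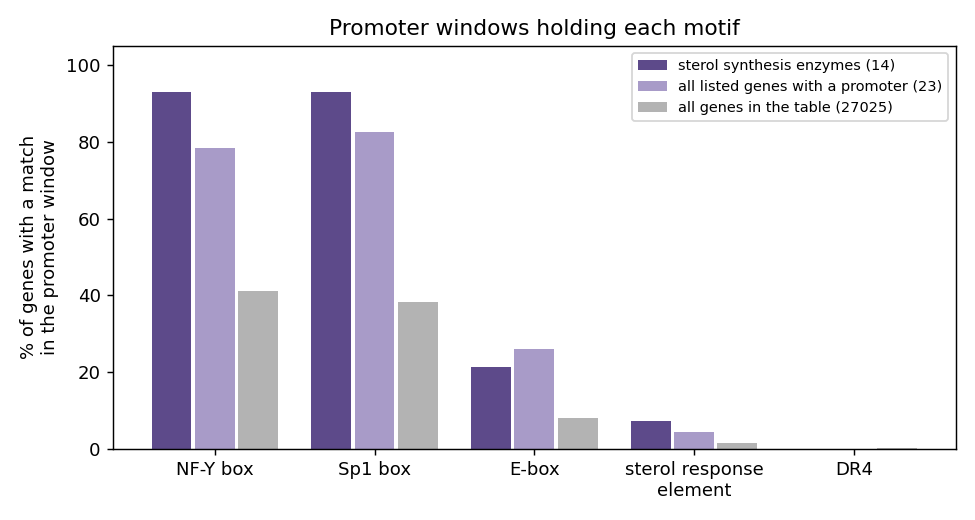
Share of genes (%, vertical axis) whose promoter window holds each motif, for the 14 sterol synthesis enzymes, the 23 listed genes and the 27025 genes of the RefSeq table that have a promoter there. The NF-Y box reaches 92.9% of sterol enzymes and 41.1% of all genes. The bars labelled DR4 count GGTCA repeated after 4 bases, which is not the spacing of the LXR element.

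All values below are log2 signals relative to the 75th percentile of the same array, and fold changes are miR-127-3p minus control on that scale. Each gene was read by its brightest probe, so levels of different genes are not compared. Of the 31 genes, 2 rose (Scap and Insig2) and 5 fell (Acaca, Scd2, Elovl6, Pmvk and Stard4) with the mimic (limma, adjusted p under 0.05 over all features). Over all features 15.9% rose and 18.3% fell, together 34.2%, so the 7 of 31 called here (22.6%) were a smaller share than the background. The groups did not overlap in 6 of the 31 genes, against 34.2% of all features. The median fold change was -0.22 over the 31 genes and 0.02 over all features. At an unadjusted p under 0.05, 2 of the 31 were higher and 11 were lower, against 22.0% and 22.8% of all features.

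**Figure D2:**
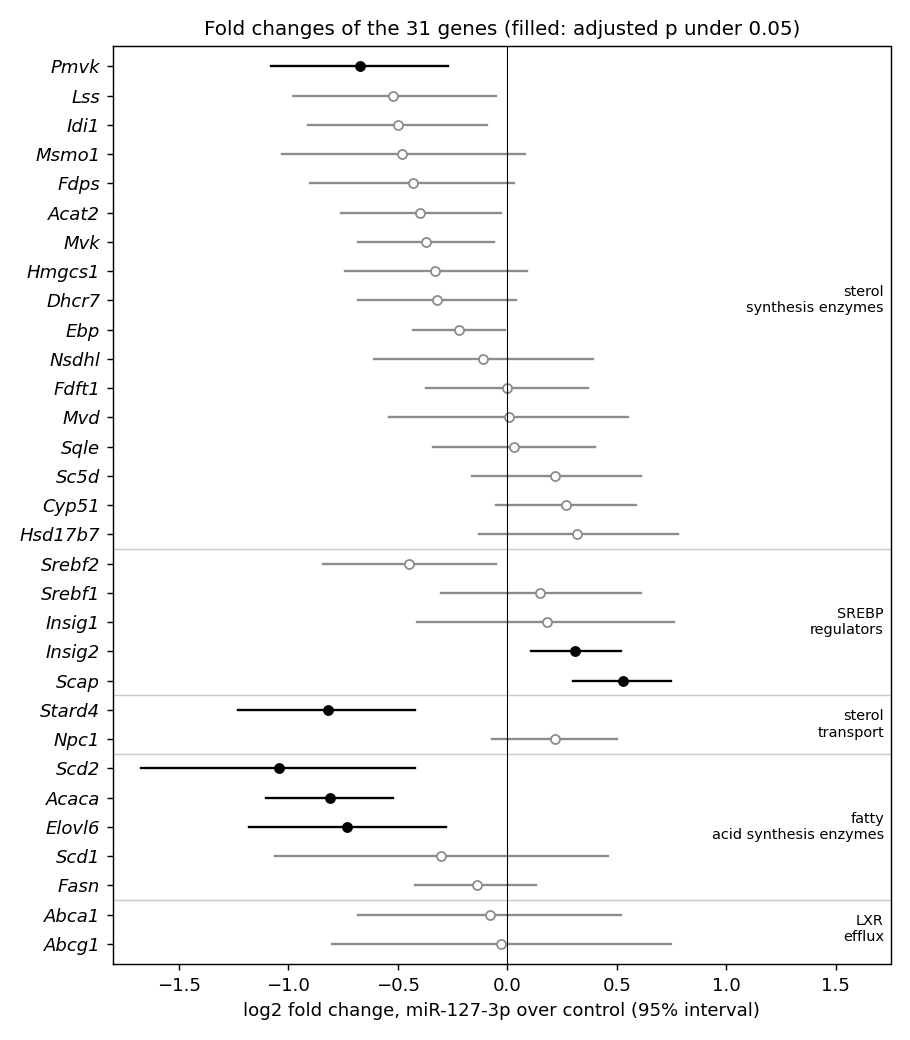
Log2 fold change (miR-127-3p over control, horizontal axis) with its 95% interval for each of the 31 genes, grouped by role. Filled black points passed the test (adjusted p under 0.05), which 2 genes did above 0 and 5 below 0.

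The fatty acid synthesis enzymes had the lowest class median, although Fasn and Scd1 lay above many sterol enzymes. Of 5 enzymes, 3 fell and 0 rose, at adjusted and at unadjusted p under 0.05. Over all features 18.3% fell and 15.9% rose at an adjusted p under 0.05, and 22.8% and 22.0% at an unadjusted p under 0.05. The median fold change of the 5 enzymes was -0.73 (range -1.04 to -0.14). Acaca, the acetyl-CoA carboxylase that makes malonyl-CoA and so commits carbon to fatty acids, read 3.26, 3.16, 3.35 and 3.00 with the mimic (samples 2, 4, 5 and 7), against 4.05, 4.28, 3.81 and 3.87 in controls (samples 1, 3, 6 and 8). Every mimic array lay below every control array. The fold change was -0.81 (SE 0.13, adjusted p = 0.00172), which is 57.0% of the control signal. A dimmer probe of Acaca was well above background on 1 of 4 mimic and 4 of 4 control arrays, so no fold is given from it. Scd2, a desaturase that puts a double bond into saturated fatty acids, read 4.33, 4.52, 5.20 and 4.24 with the mimic, against 5.79, 6.14, 5.48 and 5.05 in controls. The groups overlapped through mimic sample 5 and control 8. Its fold change was -1.04 (SE 0.27, adjusted p = 0.0186), or 48.5% of control. The call was lost without control 1 or mimic sample 7 (adjusted p = 0.0526 and 0.0520). Elovl6, whose window is printed above, read 1.14, 0.91, 1.47 and 0.89 with the mimic, against 1.90, 2.28, 1.73 and 1.43 in controls, with the same overlapping arrays. It fell by 0.73 on the log2 scale (SE 0.20, adjusted p = 0.0210), and the call was lost without control 1, mimic sample 4 or mimic sample 7 (adjusted p = 0.0547, 0.0606 and 0.0583).

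The other 2 fatty acid enzymes did not pass. Fasn, the synthase that builds palmitate from malonyl-CoA, averaged -0.26 ± 0.09 with the mimic and -0.12 ± 0.23 in controls (SD, n = 4 each; fold change -0.14, 95% interval -0.42 to 0.13, adjusted p = 0.396). Acaca and Fasn act in succession, and the difference between them within each array (Acaca minus Fasn) was 3.64, 3.32, 3.57 and 3.30 with the mimic, against 4.06, 4.17, 3.95 and 4.31 in controls. The groups did not overlap in this difference, which changed by -0.67 (exact permutation p = 0.0286, two-sided, the smallest that 70 assignments can give). The adjusted p over 4 such pairs, chosen after their values were seen, was 0.114. Scd1, the desaturase related to Scd2, read 1.39, 1.95, 1.98 and 2.11 with the mimic, against 2.65, 2.37, 2.50 and 1.1 in controls. Control 8 was the lowest of all 8 arrays, the fold change was -0.30 (95% interval -1.06 to 0.46, adjusted p = 0.524), and without control 8 it was -0.65 (adjusted p = 0.0321). The fall of Scd2 was not shown to differ from that of Scd1 (difference -0.75, exact permutation p = 0.114, adjusted p = 0.152).

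**Figure D3:**
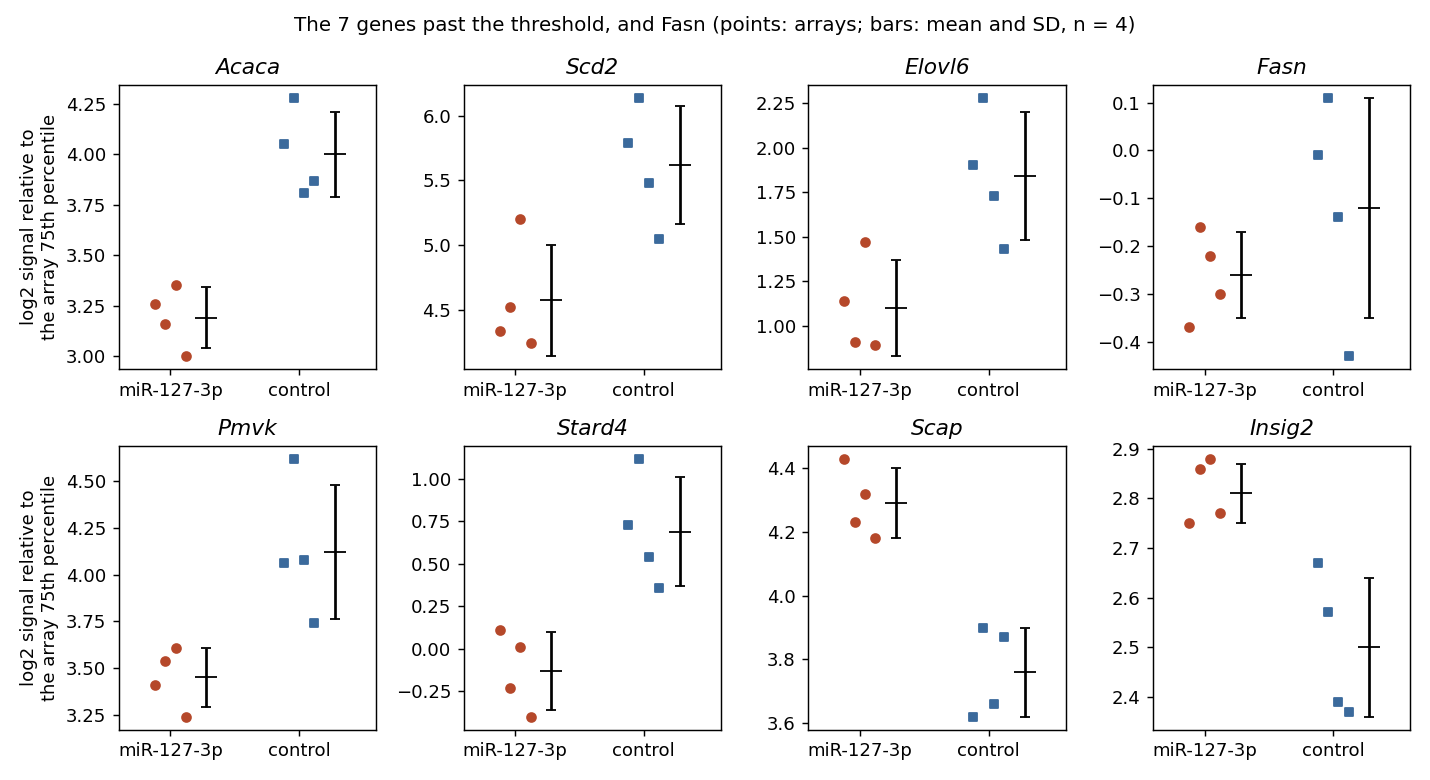
Log2 signal relative to the array's 75th percentile (vertical axis, scaled separately for each gene) on the 4 miR-127-3p and 4 control arrays for the 7 genes that passed the test and for Fasn. Points are arrays and bars are mean and SD; the groups separate fully in Acaca, Pmvk, Stard4, Scap and Insig2 and overlap in Scd2, Elovl6 and Fasn.

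Other genes of fatty acid synthesis were mostly not called. Of 20 tested of 21 listed, 2 rose and 2 fell (median fold change -0.18), against 15.9% and 18.3% of all features. Lpin1, a phosphatidate phosphatase of lipid assembly, had a fold change of 0.84 (SE 0.14, adjusted p = 0.00209) and Acsl4, a ligase that activates long-chain fatty acids, of 0.41 (adjusted p = 0.0353). Acsl3, a related ligase, had one of -0.63 (SE 0.16, adjusted p = 0.0155) and Hacd3, a dehydratase of fatty acid elongation, of -0.32 (adjusted p = 0.00969). Acly, which supplies cytosolic acetyl-CoA, had a fold change of -0.26 (adjusted p = 0.218) and was named after its value was seen.

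Of the 17 sterol synthesis enzymes, 1 fell and 0 rose (5.88% called, against 34.2% of all features). At an unadjusted p under 0.05, 6 were lower and 0 higher, against 22.8% and 22.0% of all features. Their fold changes ranged from -0.67 to 0.32, with a median of -0.32. Pmvk, the phosphomevalonate kinase, read 3.41, 3.54, 3.61 and 3.24 with the mimic, against 4.06, 4.62, 4.08 and 3.74 in controls. The groups did not overlap, and the fold change was -0.67 (SE 0.18, adjusted p = 0.0198), or 62.8% of control. A second probe gave -0.67 (SE 0.17, adjusted p over probes = 0.0174). Without mimic sample 7 the fold change was -0.60 (adjusted p = 0.0553).

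The mevalonate arm around Pmvk had 5 of 6 enzymes below 0, with a median of -0.40. Mvk, the kinase before Pmvk, averaged 3.54 ± 0.17 with the mimic and 3.90 ± 0.23 in controls (fold change -0.37, adjusted p = 0.0685). Idi1, the isomerase that makes the allylic isoprene unit, averaged 2.35 ± 0.18 with the mimic and 2.85 ± 0.36 in controls (fold change -0.50, adjusted p = 0.0612). Fdps, which joins isoprene units to farnesyl diphosphate, had a fold change of -0.43 (adjusted p = 0.135), and Hmgcs1 of -0.33 (adjusted p = 0.198). These 4 values did not pass the test. The 95% intervals of Mvk (-0.68 to -0.06) and Idi1 (-0.91 to -0.09) lay below 0. Those of Fdps (-0.9 to 0.03) and Hmgcs1 (-0.74 to 0.09) held 0. Mvd, the decarboxylase between Pmvk and Idi1, had a fold change of 0.01 (95% interval -0.54 to 0.55). Acat2, the cytosolic thiolase that precedes Hmgcs1, had one of -0.40 (adjusted p = 0.0895).

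Beyond farnesyl diphosphate the values lay on both sides of 0. Fdft1, the squalene synthase, read 2.51, 2.56, 2.51 and 2.24 with the mimic, against 2.34, 2.92, 2.36 and 2.19 in controls (fold change 0.00, 95% interval -0.37 to 0.37). Sqle, the squalene epoxidase and a rate-limiting enzyme, read 4.19, 4.19, 4.21 and 3.91 with the mimic, against 4.15, 4.53, 3.94 and 3.77 in controls. Its fold change was 0.03 (95% interval -0.34 to 0.40), so a change of the size seen in Pmvk lay outside the interval. Lss, which closes the sterol ring, read 0.67, 0.99, 1.1 and 0.88 with the mimic, against 1.20, 2.07, 1.20 and 1.26 in controls. Its groups did not overlap, and control 3 lay far above the other controls. The fold change of -0.52 (SE 0.20) did not pass (adjusted p = 0.0817), nor did that of -0.31 without control 3 (adjusted p = 0.0730).

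Of the 7 enzymes from lanosterol to cholesterol, 0 were called, against 34.2% of all features. At an unadjusted p under 0.05, 1 was lower (Ebp), against 22.8% of all features. The sterol isomerase Ebp (-0.22), the methyl oxidase Msmo1 (-0.48), the last reductase Dhcr7 (-0.32) and the dehydrogenase Nsdhl (-0.11) had fold changes below 0, with adjusted p between 0.104 and 0.726. The lanosterol demethylase Cyp51 (0.27), the ketosteroid reductase Hsd17b7 (0.32) and the desaturase Sc5d (0.22) had fold changes above 0, with adjusted p between 0.165 and 0.338. Without control 3, Hsd17b7 and Sc5d passed the test at 0.52 (adjusted p = 0.0154) and 0.38 (adjusted p = 0.0363), and Msmo1 had -0.24 (adjusted p = 0.285). Dhcr7 passed without mimic sample 2 (-0.45, adjusted p = 0.0367).

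The sterol enzymes moved together from array to array. Control 3 was the highest control in 16 of the 17 enzymes and control 8 the lowest in 15. Among mimic arrays, sample 7 was the lowest in 14. Taken as the median over the 17 enzymes of the signal minus the control mean, the arrays read -0.26, -0.20, -0.26 and -0.38 with the mimic, against -0.01, 0.47, -0.10 and -0.33 in controls. Control 8 thus lay within the mimic range, and the control arrays spanned 0.80. The median SD of an enzyme was 0.175 with the mimic and 0.334 in controls, and it was larger in controls in 15 of 17 enzymes, whereas over all features the medians were 0.164 and 0.166. The same median over all features lay between -0.04 and 0.03 on every array. Without control 3 the class median fold change was -0.15 and without control 8 it was -0.43. Without control 8, Idi1 (-0.62, adjusted p = 0.0298), Fdps (-0.61, adjusted p = 0.0234) and Acat2 (-0.50, adjusted p = 0.0442) passed the test, and 9 of the 31 genes fell in place of 5. Without control 3, 4 rose in place of 2. What set control 3 and control 8 apart was not tested.

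**Figure D4:**
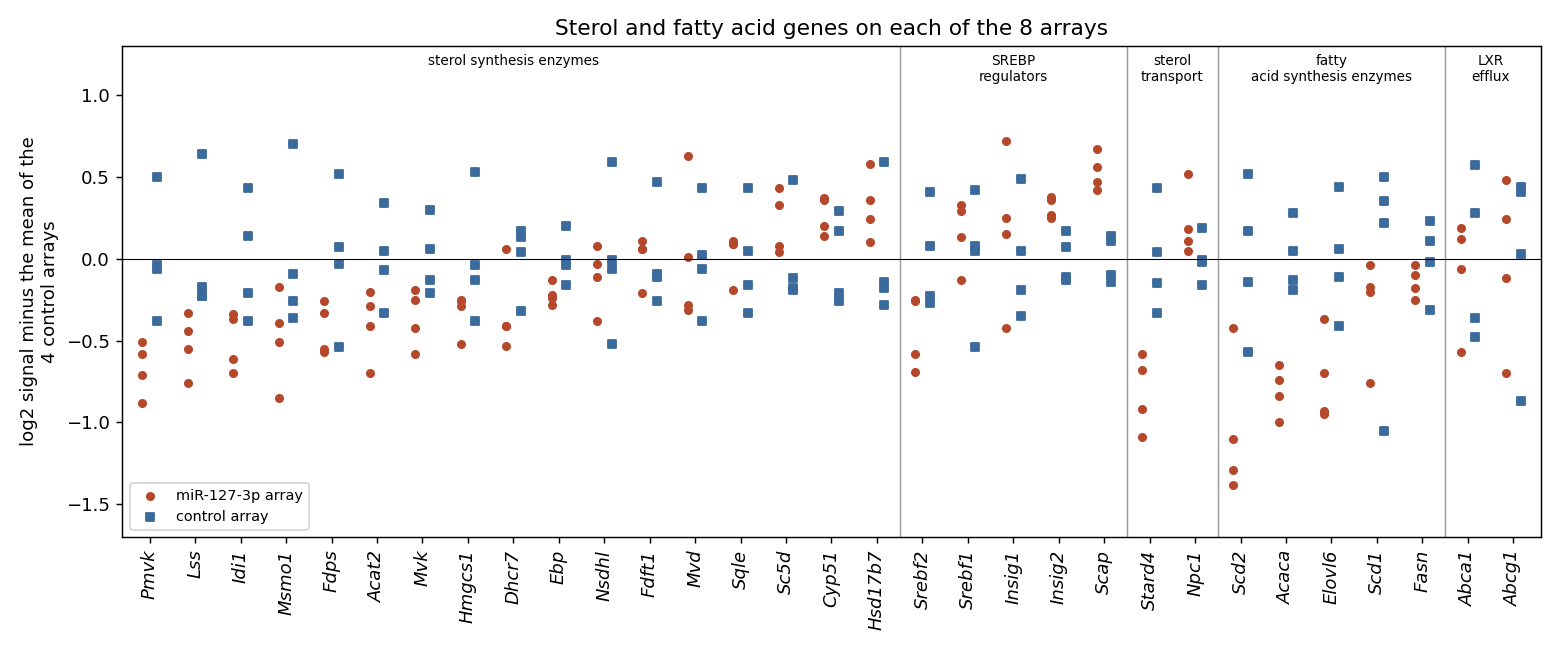
Log2 signal minus the mean of the 4 control arrays (vertical axis) for each of the 31 genes on the miR-127-3p arrays (circles) and control arrays (squares). The sterol enzymes spread more among controls than among mimic arrays, while Acaca, Pmvk, Lss and Stard4 lie fully below and Scap and Insig2 fully above the controls.

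The 5 fatty acid enzymes gave class medians of -0.74, -0.85, -0.37 and -0.94 with the mimic, against 0.11, 0.28, -0.10 and -0.41 in controls. Control 3 was again the highest control (4 of 5 enzymes) and control 8 the lowest (4 of 5). Mimic sample 5 (-0.37) was the only mimic array above a control array (control 8, -0.41). The medians of the 2 LXR-driven exporters were -0.29, -0.09, -0.17 and 0.33 with the mimic, against 0.15, 0.04, 0.49 and -0.68 in controls, and these groups overlapped. Thus the class median fold changes were -0.73 for fatty acid enzymes, -0.32 for sterol enzymes and -0.05 for exporters, and the spread among controls was 0.30, 0.34 and 0.49 (SD of the class median). These are descriptions of the arrays, and no p is attached to a class.

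**Figure D5:**
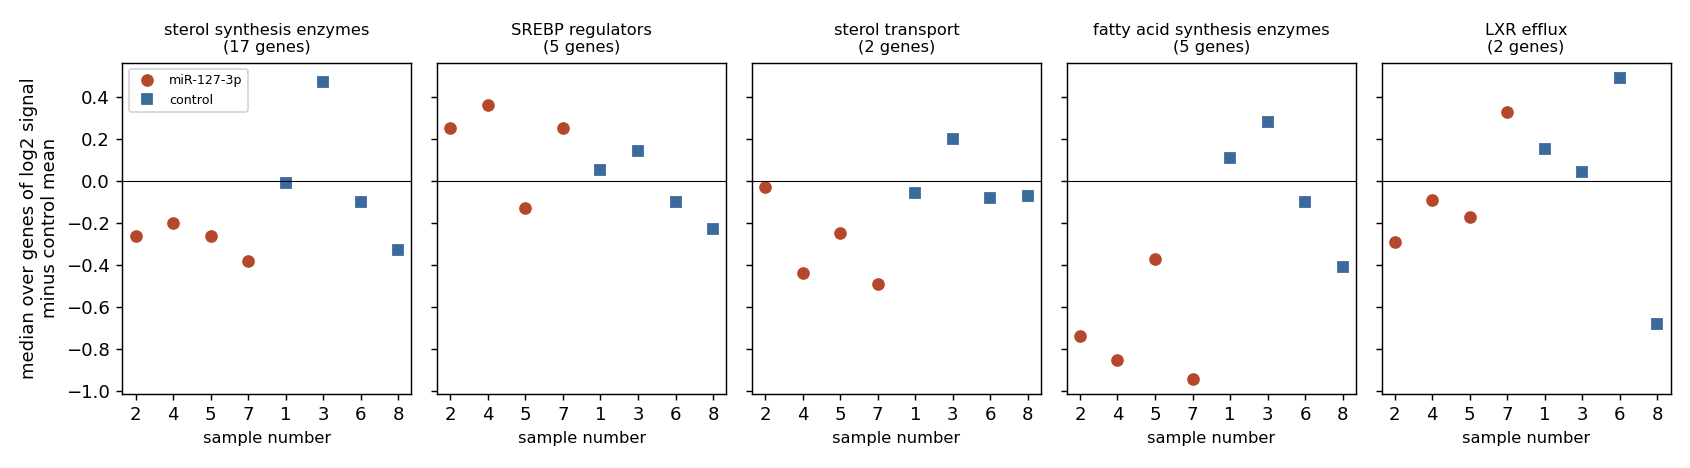
Median over the genes of each class of the log2 signal minus the control mean (vertical axis), by sample number, with the 4 miR-127-3p arrays left of the 4 control arrays. For fatty acid enzymes 3 of 4 mimic arrays lie below all controls; for sterol enzymes control 3 (0.47) and control 8 (-0.33) mark the spread.

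Among the SREBP regulators, 2 of 5 rose and 0 fell, against 15.9% and 18.3% of all features. At an unadjusted p under 0.05, 1 of the 5 was lower, against 22.8% of all features. Scap, the sterol-sensing escort that carries SREBPs to the Golgi, read 4.43, 4.23, 4.32 and 4.18 with the mimic, against 3.62, 3.90, 3.66 and 3.87 in controls. The groups did not overlap, and the fold change was 0.53 (SE 0.10, adjusted p = 0.00420), or 144% of control. Insig2, which retains the SCAP-SREBP complex, read 2.75, 2.86, 2.88 and 2.77 with the mimic, against 2.67, 2.57, 2.39 and 2.37 in controls. The groups did not overlap, and the fold change was 0.31 (SE 0.09, adjusted p = 0.0285). The call of Insig2 was lost in 11 of 18 alternative settings, among them the removal of control 6 or 8 (adjusted p = 0.0749 and 0.0747) or of mimic sample 4, 5 or 7 (adjusted p = 0.0766, 0.0616 and 0.0542). Its second probe gave 0.23 (adjusted p over probes = 0.138).

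Insig1, the retention protein that SREBP2 itself induces, read -0.43, 0.14, -1.0 and -0.33 with the mimic, against -0.53, -0.09, -0.77 and -0.93 in controls. The groups overlapped, with a fold change of 0.18 (95% interval -0.41 to 0.76), and the change of Insig2 was not shown to differ from that of Insig1 (difference 0.14, exact permutation p = 0.743). Srebf2, which encodes SREBP2, read 1.1, 0.67, 1.11 and 0.78 with the mimic, against 1.09, 1.77, 1.44 and 1.13 in controls. Its fold change of -0.45 (SE 0.17) did not pass (adjusted p = 0.0796). Srebf1, which encodes SREBP1, averaged -1.34 ± 0.21 with the mimic and -1.49 ± 0.40 in controls (fold change 0.15, adjusted p = 0.587) and was well above background on 4 mimic and 3 control arrays. Srebf2 minus Srebf1 changed by -0.60 (exact permutation p = 0.114, adjusted p = 0.152). Of 5 other genes of SREBP processing, Syvn1, a ubiquitin ligase of the endoplasmic reticulum, rose (0.25, adjusted p = 0.0300), and 0 fell at adjusted or unadjusted p under 0.05. Over all features 15.9% rose and 18.3% fell at an adjusted p under 0.05. The proteases Mbtps1 and Mbtps2, which release SREBPs, had fold changes of -0.12 and 0.00 and were named after their values were seen.

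Of the 2 sterol transport genes, 1 fell, and the difference between them was not tested. Stard4, a cytosolic carrier of cholesterol that SREBP2 also drives, read 0.11, -0.23, 0.01 and -0.40 with the mimic, against 0.73, 1.12, 0.54 and 0.36 in controls. The groups did not overlap, and Stard4 fell by 0.82 on the log2 scale (SE 0.18, adjusted p = 0.00825), to 56.6% of control. A dimmer second probe, well above background on 2 mimic and 4 control arrays, did not pass (adjusted p over probes = 0.115), and no fold is given from it. Npc1, which moves cholesterol out of lysosomes, averaged -0.27 ± 0.21 with the mimic and -0.49 ± 0.14 in controls (fold change 0.22, adjusted p = 0.212).

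Other sterol pathway genes moved both ways: of 14 tested, 4 rose and 4 fell, against 15.9% and 18.3% of all features. Npc2, the soluble partner of Npc1 in lysosomes, had a fold change of 0.69 (SE 0.10, adjusted p = 0.00153), the sterol carrier Stard3 of 0.43 (adjusted p = 0.00340) and Soat1, which esterifies cholesterol, of 0.83 (adjusted p = 0.0213). Tmem97, an endoplasmic reticulum protein that binds sterols, had one of -1.30 (SE 0.13, adjusted p = 0.000206) and Lbr, a sterol reductase that also anchors chromatin to the nuclear lamina, of -1.18 (SE 0.10, adjusted p = 7.82e-05). Lipa, the lysosomal lipase that frees cholesterol, had a fold change of -0.29 (adjusted p = 0.0271).

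Neither exporter was called. Abca1, which loads cholesterol onto apolipoproteins, read -1.18, -1.36, -1.87 and -1.11 with the mimic, against -1.02, -1.66, -0.73 and -1.78 in controls (fold change -0.08, 95% interval -0.68 to 0.52, adjusted p = 0.840). Abcg1, which exports cholesterol to lipoproteins, read 0.24, 0.82, 1.18 and 1.42 with the mimic, against 0.97, 1.38, 1.35 and 0.07 in controls (fold change -0.03, 95% interval -0.80 to 0.75, adjusted p = 0.962). In both genes the groups overlapped, and the 95% intervals were wide enough to hold a change in either direction as large as that of Insig2 (0.31). At an unadjusted p under 0.05, 0 of the 2 differed. Of 11 other genes of the LXR system, 4 rose and 1 fell, against 15.9% and 18.3% of all features. Smpdl3a, a phosphodiesterase gene that LXR induces, read 2.51, 2.35, 2.37 and 2.19 with the mimic, against 1.26, 1.5, 1.07 and 1.26 in controls (fold change 1.08, SE 0.11, adjusted p = 0.000203). Nr1h2, which encodes LXR beta, had a fold change of 0.45 (adjusted p = 0.00698) and Lpcat3, a phospholipid-remodelling enzyme, of 0.46 (adjusted p = 0.00957). Rxrb, a partner receptor, had one of -0.24 (adjusted p = 0.0378), and Nr1h3, which encodes LXR alpha, of 0.16 (adjusted p = 0.747, named after its value was seen).

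Macrophages and adipocytes also express these lipid genes, so their markers were read beside these results. All 12 fibroblast markers passed the filter, and their summed linear signal, in units of the array's 75th percentile, ran from 2200 to 2480 on mimic arrays and from 1950 to 2280 on control arrays. Of these, 2 rose and 2 fell, against 15.9% and 18.3% of all features. Of the macrophage and leukocyte list, 11 markers were tested and 10 of them rose, against 15.9% of all features. Even at an unadjusted p under 0.05, 0 were lower, against 22.8% of all features. Ptprc, the pan-leukocyte marker, was above background on no array. The summed linear signal of the list ran from 65.9 to 76.4 on mimic arrays and from 36.8 to 45.9 on control arrays. Itgam had the brightest probe of the tested markers (mean log2 signal 5.44 with the mimic and 4.93 in controls). It weighed most in this sum. The list's median signal minus the control mean was 1.36, 1.54, 0.61 and 1.33 with the mimic, against 0.09, 0.00, -0.10 and 0.06 in controls. This list median separated the groups, although single markers such as Itgam and Fcer1g overlapped. Among mimic arrays the list median was lowest in sample 5, whereas Itgam was highest there (5.71). Smpdl3a, Nr1h2 and Lpcat3 also separated the groups. In sample 5, Lpcat3 was the highest of the mimic arrays (2.84), Smpdl3a second highest (2.37) and Nr1h2 lowest (4.66). The part of these markers in the LXR values was not tested. Of 9 tested adipocyte markers, 0 were called, against 34.2% of all features, and 0 reached an unadjusted p under 0.05. Their summed signal ran from 12.7 to 41.0 on mimic arrays and from 15.0 to 41.8 on control arrays. The list's median signal minus the control mean was 0.05, 1.6, -1.07 and 1.42 with the mimic, against 0.88, -0.81, 0.74 and -1.23 in controls. Control 8, the lowest control here, was the lowest control in 25 of the 31 genes. Control 3, also low here, was the highest control in 25 of the 31. The part of adipocyte-like RNA in these values was not tested. The summed signal of keratinocyte markers ran from 15.1 to 26.0 on mimic arrays and from 10.8 to 20.2 on control arrays, and that of sebocyte markers from 2.39 to 2.95 on mimic arrays and from 1.35 to 1.89 on control arrays. Of 4 tested keratinocyte markers 1 rose (Krt10, 0.36) and 0 fell. Of 2 tested sebocyte markers 1 rose (Mogat2, 1.54) and 0 fell, with Mc5r, Awat2 and Elovl3 above background on no array. Over all features 15.9% rose and 18.3% fell. At an unadjusted p under 0.05, 0 keratinocyte markers and 1 sebocyte marker (Scd3, -0.23) were lower. The 2 tested sebocyte markers thus went opposite ways, and the higher sebocyte sum does not stand for the list. Each summed signal also counts listed markers that were not tested.

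The 8 arrays lay on 1 slide, with samples 1 to 4 in row 1 and 5 to 8 in row 2, so each row held 2 arrays of each group. Within row 1 and within row 2 alone, the fold changes were -0.96 and -0.67 for Acaca, -1.54 and -0.55 for Scd2, and -1.07 and -0.40 for Elovl6. They were -0.86 and -0.48 for Pmvk, -0.99 and -0.65 for Stard4, 0.57 and 0.48 for Scap, and 0.18 and 0.44 for Insig2. All 7 kept their direction in both rows, and with 2 arrays per group only Acaca, Scd2 and Elovl6 passed the test in row 1 (adjusted p = 0.0307, 0.0172 and 0.0380) and none in row 2 (limma, 0 of 31, with 6 of 31 at an unadjusted p under 0.05; adjusted p of the 7 from 0.0848 to 0.371). With slide row as a block, 3 of the 31 genes rose and 7 fell, the gains being Cyp51 (0.27, adjusted p = 0.0459), Idi1 (-0.50, adjusted p = 0.0402) and Mvk (-0.37, adjusted p = 0.0494). Each slide column held 1 array of each group, and with column as a block Pmvk and Insig2 lost their calls (adjusted p = 0.0649 and 0.0763). Whether the rows differ was not tested.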

How the data were processed

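RNA of 8 fibroblast samples was hybridised to 1-colour Agilent mouse arrays (62976 spots each, 3671 of them controls). The authors deposited each array's Feature Extraction 11.5.1.1 output, per the file headers, holding background-subtracted intensity values (processed signal), and a table of log2 values. The deposited log2 values equalled the log2 processed signal minus 1 constant per array, the 75th percentile (largest SD of the offset 2.78e-07 over 55249 probes); column medians ran from -3.77 to -3.59, and the genes were not centred. GeneSpring 14.9.1 is named in the series' design text.

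Here log2 processed intensity minus the array's 75th percentile was used. Between 20775 and 23485 of 55681 probes were well above background per array, and 0 spots were saturated. Probes well above background on at least 4 of 8 arrays were kept (21988 probes). Accessions were matched to RefSeq (GRCm38.p6) symbols for 28331 probes, 27350 having none, and each gene was read by its brightest probe, leaving 17107 features. Groups were tested with limma 3.58.1 (R 4.3.3; lmFit and eBayes), with Benjamini-Hochberg adjustment over all features; the fit was tested on simulated data. Single differences between genes used a two-sided exact permutation test over 70 assignments. Pearson's r between arrays was 0.985 to 0.994 among mimic arrays, 0.984 to 0.992 among controls and 0.960 to 0.981 between groups; the number of arrays limits the precision.

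The 31 genes and all lists were chosen with earlier results of these data known. All 31 are named, and from the other pathway lists up to 3 genes per direction with the smallest p. Alternatives were normexp background correction (offset 50, on the median spot signal in place of the planned mean), quantile normalization, the deposited table, other filters, the mean over probes, slide row and column, and leaving out each array.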

Additional observations from a re-analysis of the deposited data

Results flagged for a closer look

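In 7 of 72 groups of 4 arrays, 1 array stood far from the other 3 (by Dixon's test of the gap over the range), and chance flags about 1 in 20 groups. Mimic sample 7 was low in Hmgcs1 (4.46, against 4.69 to 4.73 on the other mimic arrays), Sqle (3.91, against 4.19 to 4.21) and Fdft1 (2.24, against 2.51 to 2.56). Control 3 was high in Lss (2.07, against 1.20 to 1.26 on the other controls), Hsd17b7 (1.84, against 0.97 to 1.11) and Sc5d (3.52, against 2.85 to 2.92). The median of the 2 sterol transport genes was also high in control 3 (0.20, against -0.08 to -0.06). All 6 genes are sterol synthesis enzymes, and none of them passed the test between groups over all 8 arrays.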

How the results depend on the processing

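No paired analysis was possible because the groups share no sample number, other than by slide position, where each of the 4 columns held 1 array of each group. With that column as a block, Pmvk and Insig2 lost their calls (adjusted p = 0.0649 and 0.0763) and the other 5 called genes did not. Over 18 alternative settings no called gene reversed its direction. Of the 24 genes not called, 14 were called under no setting and 10 under at least 1. The count of the 31 genes that rose (2) became 1 with normexp, with no filter on dim probes, with slide column as a block and with the mean over probes, 0 within either slide row, and 1 to 4 when arrays were left out in turn. The count that fell (5) became 8 with normexp, 7 with slide row as a block (with 3 higher), 2 with no filter, 3 within row 1, 0 within row 2, and 2 to 9 when arrays were left out. With no filter, Scd2, Elovl6, Pmvk and Insig2 lost their calls (adjusted p = 0.0558, 0.0668, 0.0655 and 0.126). Over all features, 2720 rose, against 1644 with no filter (36712 features tested), 1780 with slide column as a block, 771 in row 1 and 685 in row 2, and 1866 to 2901 when arrays were left out. Likewise 3135 fell, against 2013 with no filter, 992 in row 1 and 926 in row 2, and 2456 to 3074 when arrays were left out. The fatty acid class median of -0.73 was -0.40 within row 2 and -0.86 to -0.59 when arrays were left out; the sterol enzyme median was -0.43 to -0.15, that of SREBP regulators 0.06 to 0.34, of sterol transport -0.39 to -0.24 and of the exporters -0.28 to 0.11. The rows hold 2 arrays per group, and other causes were not tested. Of the 31 genes, Srebf1 alone was not well above background on every array (4 of 4 mimic and 3 of 4 control arrays).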
